A study of Mus musculus with 8 samples.

Results

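The type I interferon response genes examined here were 40 mouse genes, chosen as a list of symbols of interferon-stimulated genes and their regulators. All 40 were found among the 47069 Ensembl genes present in both deposited expression tables, and all 40 were among the 12273 genes tested, which reached 1 FPKM in 4 or more of the 8 libraries. FPKM is the number of sequenced fragments per kilobase of gene and per mega (M) fragments. In 38 of the 40 the level was at least 1 FPKM in every library. The exceptions were Oas1a and Oas2.

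RNA was sequenced from regulatory T cells (Tregs), CD4 T cells that restrain immune responses and carry the transcription factor Foxp3. The cells came from lymph nodes of C57BL/6 mice of 6 to 8 weeks of age, each of which carried 2 reporters, 35EbiT, read as surface Thy1.1, and Blimp1-GFP KI, a knock-in at the Blimp1 locus Prdm1. Ebi3-Tregs were sorted as CD4+CD25+CD62Llow cells that were Thy1.1+ and Blimp1-, and Blimp1-Tregs as CD4+CD25+CD62Llow cells that were Thy1.1- and Blimp1+. Each population had 4 libraries, with replicates 1 and 2 in the first table and replicates 3 and 4 in the second, and the labels do not say whether replicates came from separate animals or pools. The labels name no treatment, and the comparison is between Tregs that showed one reporter and Tregs that showed the other.

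Type I interferons are cytokines that cells release when sensors detect foreign or misplaced nucleic acid. They bind the IFNAR1 and IFNAR2 chains, and the kinases JAK1 and TYK2 then start signalling that forms the complex ISGF3, of which IRF9 is a part and which binds interferon-stimulated response elements (ISRE) near target genes. Interferon-gamma uses another receptor, and many GTPases of the GBP and IRG families respond to it more than to type I interferon. Blimp1 is a repressor whose binding motif resembles the ISRE, and Ebi3 encodes a chain shared by IL-27 and IL-35.

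Depth recovered from the low values was 13.3 to 31.3 M fragments per library, so that 1 read in a gene of 1 kilobase was worth 0.0320 to 0.0750 FPKM. The reporter genes followed the sort: Ebi3 was at 29.6 ± 11.7 FPKM in Ebi3-Tregs and 7.67 ± 2.84 in Blimp1-Tregs (SD, n = 4 each), and Foxp3 was between 182 and 406 FPKM in all 8 libraries. The libraries differed by replicate number in several ways. B cell transcripts were highest in both number 1 libraries: the summed level of 8 B cell markers was 248 and 171 FPKM there and 32.5 to 72.6 elsewhere. Plasmacytoid dendritic cells release much type I interferon, and the summed level of 6 of their markers was 42.7 and 54.2 FPKM in number 1 and 11.1 to 26.9 elsewhere. Its members went different ways. Ccr9, which T cells also express, was at 36.0 of the 54.2 in Blimp1-Treg 1 but at 6.06 in Ebi3-Treg 1, below the 16.8 of Ebi3-Treg 4. Number 1 was highest in both populations for 3 of the 6 markers. Without Ccr9 the sum was 36.6 and 18.2 FPKM in number 1 and 4.52 to 11.1 elsewhere. The summed level of 2 CD8 T cell markers was 39.3 and 30.3 FPKM in number 1 and 7.76 to 22.6 elsewhere. The B cell gene Cd79a was at 65.1 and 52.0 FPKM in number 1 and 1.41 to 2.31 in the others. Summed levels of 8 myeloid markers were highest in Ebi3-Treg 1 and 2, at 111 and 98.2 FPKM, against 9.36 to 38.2 in the other 6 libraries. Most of the sum there was Lyz2 (99.1 and 91.1 FPKM). Without Lyz2 the sums were 11.5 and 7.14 FPKM in Ebi3-Treg 1 and 2 and 5.08 to 11.3 in the other 6 libraries. Ebi3-Treg 2 was then below Blimp1-Treg 1, 2 and 4. Summed levels of 5 NK cell markers were 15.2 FPKM in Ebi3-Treg 1, 3.27 in Blimp1-Treg 1 and 1.83 to 6.09 elsewhere. In the number 2 libraries, averaged over the populations, long genes read low and short genes high. Across the 12232 genes tested with a reference length, Spearman's rho between exon length and the deviation of that average from the other numbers was -0.37. Xist was below 0.1 FPKM in numbers 1 and 2 and between 18.5 and 24.4 in numbers 3 and 4, so the sex of the mice and the table cannot be told apart.

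The promoter sequence shows what many of these genes share. In a RefSeq table of promoters (build GRCm38.p6, 250 bases before to 50 after each start), 32 of the 40 genes were found. The ISRE core, GAAA followed after any 2 bases by a second GAAA, was searched on both strands, with overlapping matches counted once per promoter. It was in the promoters of 16 of the 32 genes, against 3.99% of all genes in the table and 3.44% of its 32851 promoters of that length. A STAT-type palindrome, TTCNNNGAA, was in 9 of the 32 (28.1%), against 9.55% of all genes and 8.30% of all promoters, and it can overlap the ISRE core. The letters GTGAAAGTG, a core of the Blimp1 motif, occurred on either strand only in Gbp2 among the 32, and in 0.329% of all genes and 0.283% of all promoters. These matches are letters in a window and not measured binding. The stretches that follow come from the promoters of 6 genes described in the results, 5′ to 3′ on the strand of the gene, with the capitals marking that ISRE core or its reverse complement. They are Igtp at chr11:58199497-58199555 (plus strand), Gbp7 at chr3:142530258-142530317 (plus), Ifit1 at chr19:34640770-34640828 (plus), Ifit3 at chr19:34583365-34583424 (plus), Isg15 at chr4:156200856-156200915 (minus) and Oas1a at chr5:120907526-120907567 (minus).
Igtp: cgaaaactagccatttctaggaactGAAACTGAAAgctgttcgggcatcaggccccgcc
Gbp7: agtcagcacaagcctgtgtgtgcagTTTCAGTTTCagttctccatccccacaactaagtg
Ifit1: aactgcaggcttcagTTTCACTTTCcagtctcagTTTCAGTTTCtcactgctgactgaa
Ifit3: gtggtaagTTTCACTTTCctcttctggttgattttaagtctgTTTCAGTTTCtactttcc
Isg15: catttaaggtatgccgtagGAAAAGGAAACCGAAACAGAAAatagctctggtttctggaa
Oas1a: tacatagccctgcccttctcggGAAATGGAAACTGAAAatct
Ifit1 and Ifit3, neighbours in one gene cluster, each held separate matches, and in Isg15 and Oas1a the matches overlapped in one run.

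Between the populations, 1 of the 40 genes passed the test. Igtp, a GTPase of the IRG family, was lower in Ebi3-Tregs, 0 genes were higher, and 39 were not called by limma (fit on log2(FPKM + 1) with population and table as terms, Benjamini-Hochberg adjustment over all 12273 genes, threshold 0.05, two-sided). Among all genes tested 6.29% were called, 3.37% as higher and 2.93% as lower in Ebi3-Tregs. By unadjusted p, 6 of the 40 were under 0.05, namely Igtp, Gbp7, Gbp3, Zbp1, Usp18 and Stat5a, against 18.6% of all genes. The log2 fold changes, Ebi3-Treg minus Blimp1-Treg, ran from -0.70 to 1.49 with a median of -0.01, against a median of 0.07 over all genes tested. They were positive for 20 and negative for 20. Populations that did not overlap within either table, with the same direction in both, were seen in 6 of the 40, against 19.0% of all genes. These were Usp18 and Stat5a on the higher side (11.7% of all genes) and Igtp, Gbp7, Zbp1 and Irf1 on the lower side (7.30%). In the first table alone 2 of the 40 were higher without overlap (17.9% of all genes) and 8 lower (10.4%), and in the second 3 were higher (33.3%) and 9 lower (25.3%).
Libraries of the same number deviated together, and with the replicate number as a block limma called 10 of the 40, against 22.4% of all genes. Those higher in Ebi3-Tregs in that fit were Usp18, Ifit3, Irf7 and Stat5a, against a background of 13.5%, and those lower were Igtp, Gbp7, Zbp1, Parp9, Dtx3l and Cmpk2, against 8.94%. The test measures the spread between these libraries, which may be technical.

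**Figure D1:**
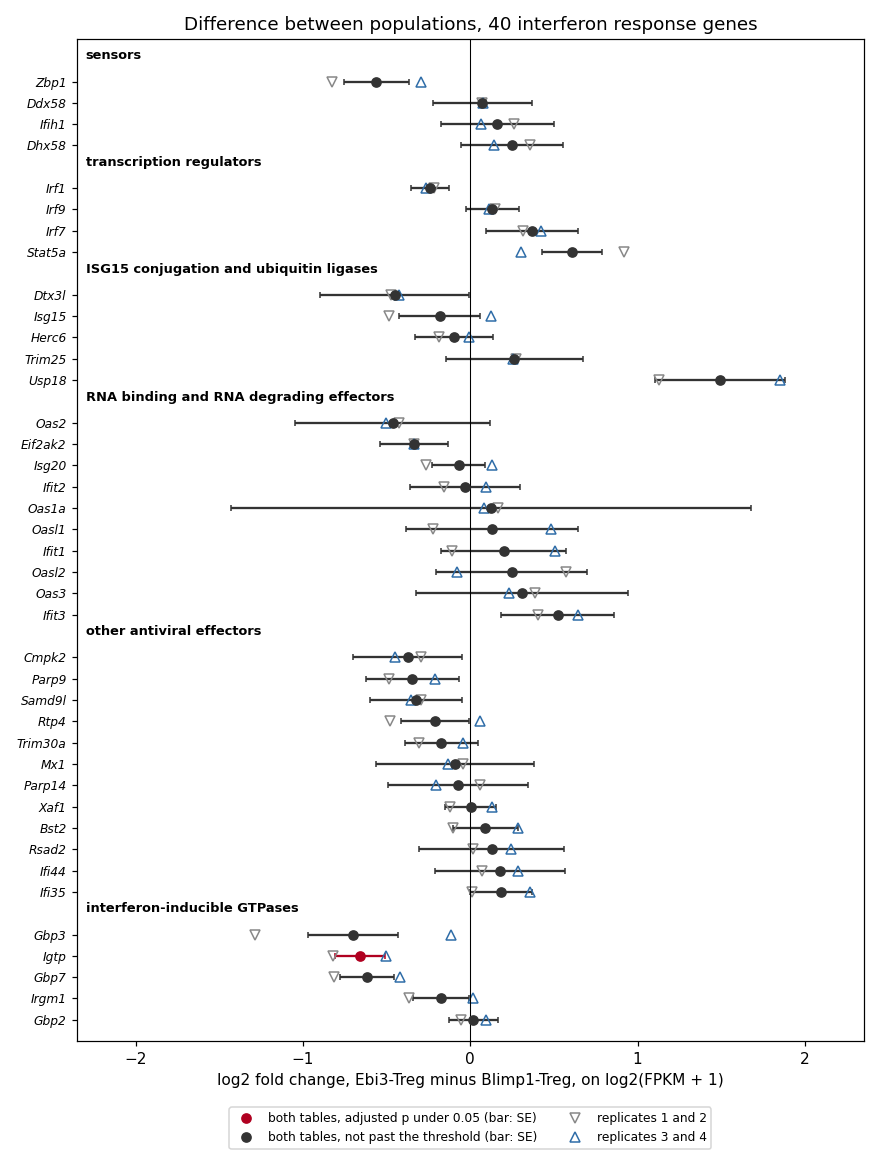
Log2 fold change of the 40 genes (Ebi3-Treg minus Blimp1-Treg, on log2(FPKM + 1)), grouped by role, with filled points for the fit on both tables, bars for its SE, and open triangles for the fold change in each table. Igtp, at -0.66, is the gene marked as called, Usp18 lies farthest to the right at 1.49, and the other role groups lie on both sides of 0.

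The interferon-inducible GTPases attach to membranes around intracellular microbes, and 5 of the 40 belong to them. These had a median log2 fold change of -0.62, with 1 called lower, 0 higher and 4 not called. Igtp (ENSMUSG00000078853) was at 160.0, 218, 124 and 139 FPKM in Ebi3-Treg 1 to 4 and at 307, 355, 183 and 189.7 in Blimp1-Treg 1 to 4. Within each table both Blimp1-Treg libraries lay above both Ebi3-Treg libraries, although Ebi3-Treg 2 lay above Blimp1-Treg 3 and 4. The mean was 160.2 ± 41.1 FPKM against 259 ± 85.9 (SD, n = 4 each), a log2 fold change of -0.66 (SE 0.15, limma adjusted p = 0.0389), or 1.58-fold higher in Blimp1-Tregs. The change was -0.82 in the first table and -0.50 in the second. The call was lost in 13 of 21 other settings, with the direction kept in all 21. It was lost, among others, without both libraries of number 3 (adjusted p = 0.295) or of number 4 (0.268), and kept with the replicate block (0.0043).

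Gbp7 (ENSMUSG00000040253), a guanylate-binding protein, was at 64.5, 49.9, 59.1 and 77.4 FPKM in Ebi3-Treg 1 to 4 and at 106, 95.5, 94.2 and 87.4 in Blimp1-Treg 1 to 4. All 4 Blimp1-Treg libraries lay above all 4 Ebi3-Treg libraries, which held for 11.1% of all genes tested in one direction or the other. The log2 fold change was -0.62 (SE 0.16), with a limma adjusted p of 0.0659, and 0.0144 with the replicate block. Gbp3 (ENSMUSG00000028268) was at 82.8, 134, 108 and 124 FPKM in Ebi3-Tregs and at 232, 287, 121 and 131 in Blimp1-Tregs. The populations lay far apart in the first table, with a log2 fold change of -1.28, and close together in the second, with -0.12. That difference between tables had an unadjusted limma p of 0.0191, the only one of the 40 interaction terms under 0.05 (1.65% of all genes), and none of the 40 passed after adjustment (0 of all 12273 genes, 0% did). Gbp3 was not called over both tables (-0.70, SE 0.27, limma adjusted p = 0.207). Gbp2 (ENSMUSG00000028270) was at 71.3, 88.5, 74.0 and 88.0 FPKM in Ebi3-Tregs and 72.8, 93.8, 70.6 and 81.0 in Blimp1-Tregs. It was level between the populations, with a log2 fold change of 0.02 (SE 0.15). Irgm1, a regulator of the IRG GTPases, was between 58.2 and 111 FPKM with a log2 fold change of -0.17 (SE 0.17). Genes of these families have close copies, so reads of Gbp and Irgm genes may be shared between them.

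Usp18 had the largest fold change of the 40. It encodes the protease that removes ISG15 from proteins and that also holds back signalling at the IFNAR2 chain. Usp18 (ENSMUSG00000030107) was at 151, 85.6, 51.4 and 91.2 FPKM in Ebi3-Treg 1 to 4 and at 83.5, 31.6, 13.6 and 24.4 in Blimp1-Treg 1 to 4. Each Ebi3-Treg library lay above the Blimp1-Treg library of its number, by 1.81-, 2.71-, 3.78- and 3.74-fold, while Blimp1-Treg 1 lay above Ebi3-Treg 3. The mean was 94.8 ± 41.4 FPKM against 38.3 ± 31.1 (SD, n = 4 each), 2.81-fold on the log2(FPKM + 1) scale. The log2 fold change of 1.49 (SE 0.39) had a limma adjusted p of 0.0658, and 0.00191 with the replicate block. In the second table fitted alone it was called higher (adjusted p = 0.0423), as Igtp was called lower (adjusted p = 0.0277), the 2 calls among the 40 there against 11.0% of all genes (5.51% higher, 5.47% lower). In the first table alone limma called none of the 40 and 0% of all genes, with 2 of the 40 at an unadjusted p under 0.05 (5.76% of all genes). With the replicate block limma called 11 of the 40 in that table, against 23.3% of all genes, and 2 in the second, against 11.5%.

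The other genes of ISG15 conjugation and ubiquitin ligation stood elsewhere. Isg15 (ENSMUSG00000035692), the ubiquitin-like protein itself, was at 54.8, 59.0, 9.82 and 17.5 FPKM in Ebi3-Tregs and 72.9, 88.0, 9.43 and 15.2 in Blimp1-Tregs. The libraries of the first table lay above those of the second in both populations, and the log2 fold change between populations was -0.18 (SE 0.24). It was -0.49 in the first table, where both Ebi3-Treg libraries lay below both Blimp1-Treg libraries, and 0.12 in the second, where they overlapped. Dtx3l (ENSMUSG00000049502), a ubiquitin ligase that works with Parp9, was at 44.3, 12.3, 27.1 and 37.7 FPKM in Ebi3-Tregs and 58.6, 18.6, 42.9 and 43.9 in Blimp1-Tregs. Each Blimp1-Treg library was above its Ebi3-Treg counterpart of the same number, but both number 2 libraries lay below all others, and the adjusted p was 0.72, or 0.0182 with the replicate block. Herc6, the main ISG15 ligase of the mouse, was between 10.2 and 20.7 FPKM with a log2 fold change of -0.10. Trim25, a ligase that acts in the RIG-I pathway, was between 5.36 and 21.2 FPKM with one of 0.26.

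**Figure D2:**
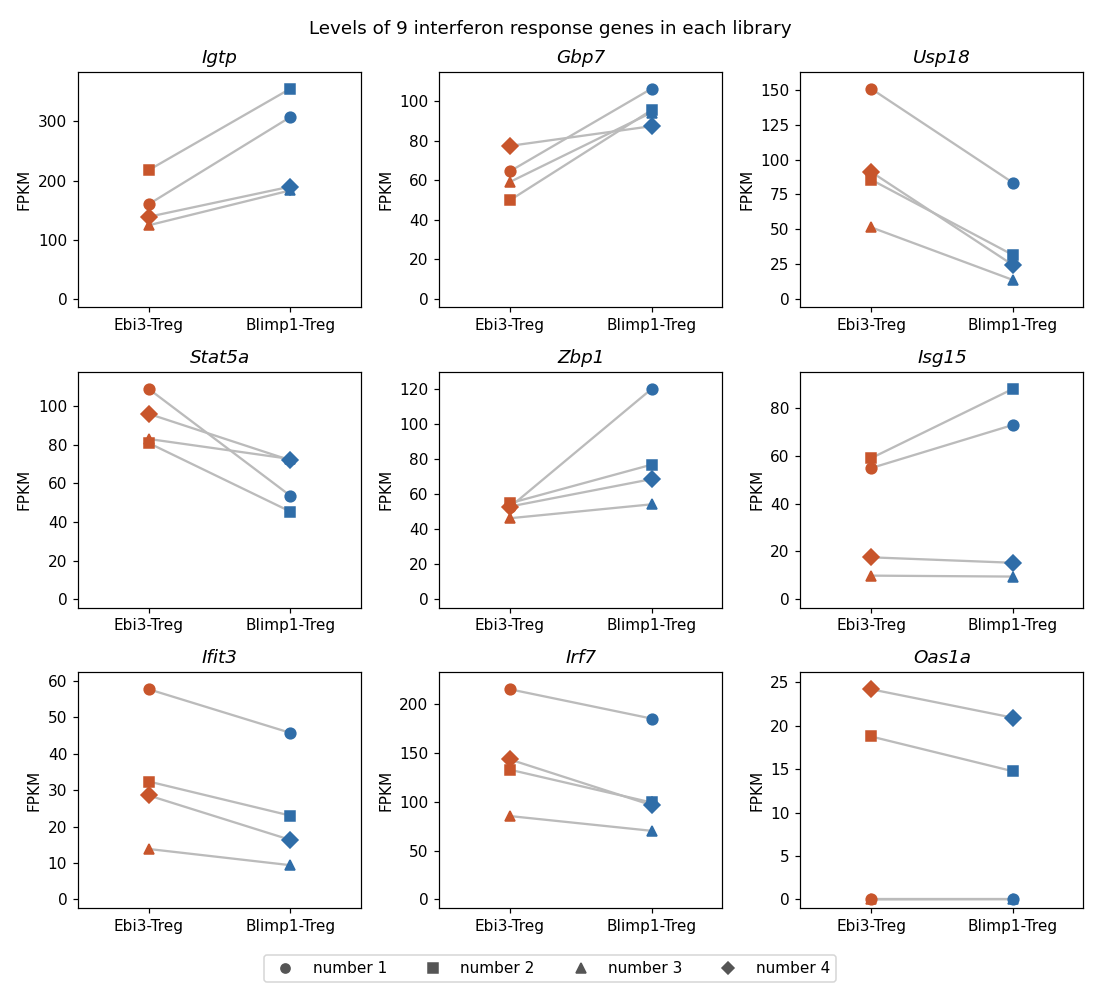
FPKM of 9 of the genes in every library, on linear axes that include 0, with Ebi3-Treg on the left, Blimp1-Treg on the right, a marker shape for each replicate number, and a line between libraries of the same number. Lines of Igtp and Gbp7 rise to Blimp1-Treg, those of Usp18 fall (151 to 83.5, 85.6 to 31.6, 51.4 to 13.6 and 91.2 to 24.4 FPKM), and Oas1a is near 0 in numbers 1 and 3.

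Among the transcription regulators none of the 4 genes was called by limma, and their median log2 fold change was 0.25. Irf1 (ENSMUSG00000018899), a factor that responds to interferon-gamma as well as type I interferon, had the highest level of the 40, at 500.1, 548, 404 and 414 FPKM in Ebi3-Tregs and 634, 586, 521 and 463 in Blimp1-Tregs. Blimp1-Treg libraries were higher within each table, by little, with a log2 fold change of -0.24 (SE 0.11, limma adjusted p = 0.323). Irf7 (ENSMUSG00000025498), the factor that amplifies type I interferon production, was at 215, 133, 85.4 and 143 FPKM in Ebi3-Tregs and 185, 99.4, 70.3 and 96.6 in Blimp1-Tregs. It was higher in Ebi3-Tregs at each number while numbers differed more than populations, with a log2 fold change of 0.37 (SE 0.27, limma adjusted p = 0.59, and 0.0221 with the replicate block). Irf9 (ENSMUSG00000002325), the DNA-binding part of ISGF3, was at 135, 109, 78.8 and 108 FPKM in Ebi3-Tregs and 126, 95.5, 83.2 and 87.4 in Blimp1-Tregs. Its populations overlapped, with a log2 fold change of 0.13 (SE 0.16).

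Stat5a (ENSMUSG00000004043), which transmits signals of IL-2 and related cytokines and is listed here among the regulators, was at 109, 80.9, 83.0 and 96.0 FPKM in Ebi3-Tregs and 53.6, 45.4, 72.6 and 71.9 in Blimp1-Tregs. All 4 Ebi3-Treg libraries lay above all 4 Blimp1-Treg libraries. The log2 fold change was 0.61 (SE 0.18, limma adjusted p = 0.0973), with 0.92 in the first table and 0.30 in the second, and the adjusted p was 0.0231 with the replicate block. Stat5a and Gbp7 were the 2 genes of the 40 whose populations did not overlap over all 8 libraries.

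Of the nucleic acid sensors none of 4 was called, with a median log2 fold change of 0.12. Ddx58 (ENSMUSG00000040296), which encodes the RNA sensor RIG-I, was at 104, 45.7, 76.2 and 90.5 FPKM in Ebi3-Tregs and 93.8, 45.9, 78.8 and 79.0 in Blimp1-Tregs. The numbers ordered both populations the same way, with number 1 highest and number 2 lowest, and the populations were level (log2 fold change 0.07, SE 0.30). Zbp1 (ENSMUSG00000027514), a sensor of Z-form nucleic acid, was at 52.6, 54.8, 46.2 and 52.9 FPKM in Ebi3-Tregs and 120.0, 76.8, 54.1 and 68.5 in Blimp1-Tregs. It was nearly flat over the Ebi3-Treg libraries and higher in Blimp1-Tregs within each table, with a log2 fold change of -0.56 (SE 0.19, limma adjusted p = 0.159, and 0.0426 with the replicate block). Dhx58 (ENSMUSG00000017830), a RIG-I relative that lacks the signalling domain, was at 73.4, 37.2, 30.8 and 49.4 FPKM in Ebi3-Tregs and 57.5, 28.6, 30.1 and 41.3 in Blimp1-Tregs. Populations overlapped, with a log2 fold change of 0.25 (SE 0.31). Ifih1, the RNA sensor MDA5, was between 8.80 and 24.2 FPKM with a log2 fold change of 0.16.

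The 10 effectors that bind or degrade RNA included none that was called, and their median log2 fold change was 0.13. Isg20 (ENSMUSG00000039236), an RNA exonuclease, was at 73.6, 100.1, 35.1 and 38.8 FPKM in Ebi3-Tregs and 96.5, 111, 31.5 and 36.0 in Blimp1-Tregs. As with Isg15, the first table was above the second. The populations of Isg20 overlapped within each table (log2 fold change -0.07, SE 0.16). Eif2ak2 (ENSMUSG00000024079), the kinase PKR that stops translation on double-stranded RNA, was at 33.5, 21.2, 20.3 and 32.1 FPKM in Ebi3-Tregs and 38.2, 30.2, 33.5 and 31.5 in Blimp1-Tregs. Its log2 fold change was -0.34 (SE 0.20), with populations overlapping in each table. Ifit1 (ENSMUSG00000034459), which binds RNA without the methylated cap of the host, was at 50.8, 24.3, 15.7 and 35.8 FPKM in Ebi3-Tregs and 51.0, 28.2, 12.4 and 21.8 in Blimp1-Tregs. The number 1 libraries were highest and number 3 lowest in both populations, and the populations overlapped (log2 fold change 0.20, SE 0.37).

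Ifit3 (ENSMUSG00000074896), a neighbour of Ifit1 in its gene cluster, was at 57.7, 32.4, 13.8 and 28.5 FPKM in Ebi3-Tregs and 45.7, 23.0, 9.39 and 16.3 in Blimp1-Tregs. As with Ifit1, number 1 was highest and number 3 lowest in both populations, and the Ebi3-Treg library was above its counterpart at every number, by 1.26- to 1.75-fold. The log2 fold change was 0.52 (SE 0.34, limma adjusted p = 0.509, and 0.0115 with the replicate block). Ifit2 was between 8.25 and 25.2 FPKM with a log2 fold change of -0.03. The synthetase Oas3 and its relatives Oasl1 and Oasl2 were between 1.62 and 29.6 FPKM with log2 fold changes of 0.13 to 0.31. Oas2 had the lowest mean level of the 40, at 4.97, 0.216, 0.326 and 0.771 FPKM in Ebi3-Tregs and 6.54, 0.744, 1.02 and 1.33 in Blimp1-Tregs. It stood above 4 FPKM in the number 1 libraries alone.

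Of the 12 other antiviral effectors none was called, with a median log2 fold change of -0.08. Trim30a (ENSMUSG00000030921), a TRIM family protein, was at 120.4, 67.8, 77.8 and 97.7 FPKM in Ebi3-Tregs and 136, 91.8, 87.4 and 92.6 in Blimp1-Tregs, so that the populations overlapped (log2 fold change -0.17, SE 0.22). Parp9 (ENSMUSG00000022906), the partner of Dtx3l, was at 108, 54.1, 65.9 and 97.2 FPKM in Ebi3-Tregs and 142, 80.7, 82.2 and 105 in Blimp1-Tregs. Like Dtx3l it was higher in Blimp1-Tregs at each number, with a log2 fold change of -0.35 (SE 0.28, limma adjusted p = 0.627, and 0.0375 with the replicate block). Bst2 (ENSMUSG00000046718), or tetherin, which holds budding virus at the cell surface, was at 107, 135, 35.5 and 51.1 FPKM in Ebi3-Tregs and 114, 147, 30.0 and 40.4 in Blimp1-Tregs. The first table was above the second, with little between the populations (log2 fold change 0.09, SE 0.19). The classical antiviral genes Mx1, Rsad2 (viperin) and Ifi44 were low, between 2.51 and 16.7 FPKM, with log2 fold changes of -0.09, 0.13 and 0.18. The remaining 6 genes were between 6.28 and 93.7 FPKM. Their log2 fold changes were 0.18 for Ifi35, 0.00 for Xaf1, -0.07 for Parp14, -0.21 for Rtp4, -0.32 for Samd9l and -0.37 for Cmpk2, of which Cmpk2 was called lower with the replicate block (limma adjusted p = 0.0492).

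The larger pattern in these genes was by replicate number, shared by both populations. The number accounted for a median of 90.3% of a gene's sum of squares over the 8 libraries on the log2(FPKM + 1) scale, and the population for 4.13%. Over all genes tested the medians were 74.0% and 9.18%. The population accounted for more than 50% in 2 of the 40, Gbp7 (75.9%) and Stat5a (62.7%), against 15.0% of all genes. For Usp18 the shares were nearly even, 46.8% for the number and 49.4% for the population. These shares are a description, and the number carries with it the table, the sex of the mice and whatever else libraries of one number had in common. With more levels than the population, the number takes a larger share on average even where neither has an effect.

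**Figure D3:**
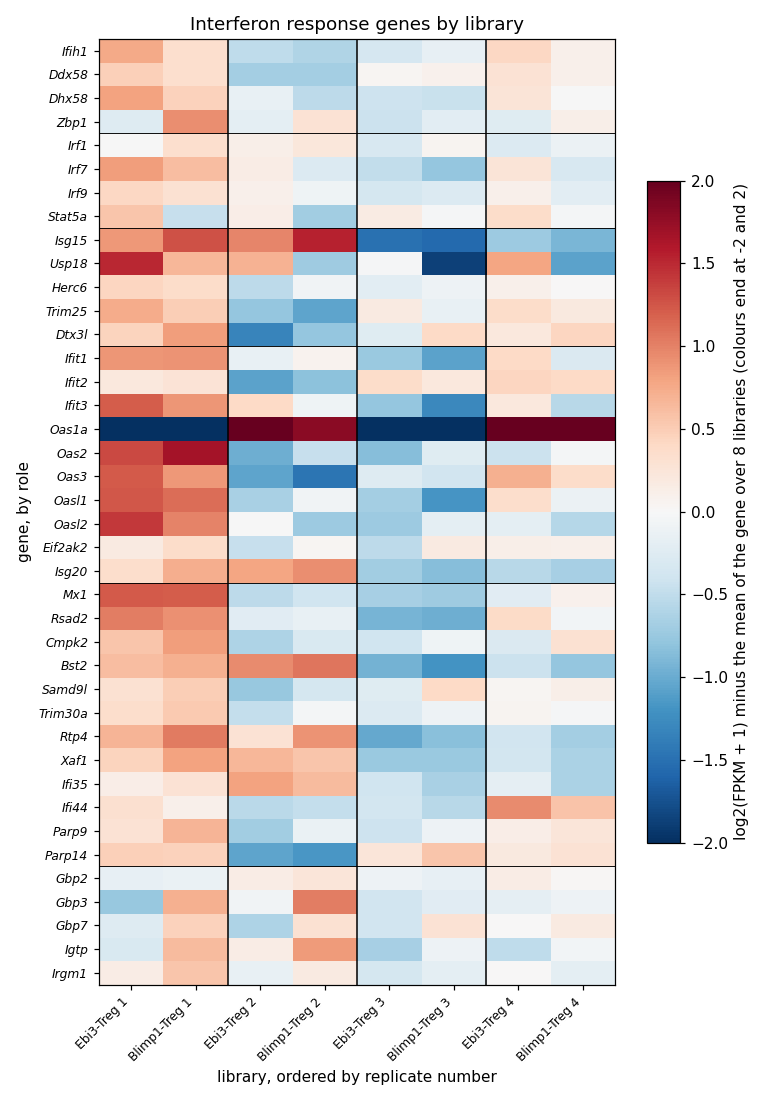
Log2(FPKM + 1) of each of the 40 genes minus its mean over 8 libraries, with libraries ordered by replicate number and genes grouped by role, and colours that end at -2 and 2. Neighbouring columns of the same number look alike, number 1 is mostly above the mean and number 3 mostly below, and Oas1a alternates between the numbers.

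In 18 of the 40 the 2 highest libraries of the 8 were those of number 1, against 5.30% of all genes. They were those of number 2 in 4 genes (19.2% of all genes), Isg20, Bst2, Ifi35 and Gbp2, and those of number 4 in 3 (2.54%), Ifit2, Ifi44 and Oas1a. The median deviation of the 40 genes from their own means was 0.46 on the log2 scale in Ebi3-Treg 1 and 0.63 in Blimp1-Treg 1, where the medians over all genes were 0.14 and 0.03. These are the libraries that also held the most B cell transcripts and the highest sums of plasmacytoid and CD8 T cell markers. The part of those cells in the levels was not tested. In bulk RNA, fewer cells of a type and less RNA per cell cannot be told apart. Oas2, Mx1 and Oasl2 showed the pattern plainly. Mx1, a dynamin-like GTPase, was at 16.7 and 16.3 FPKM in number 1 and between 3.61 and 6.96 in the other 6 libraries. Oasl2 was at 20.4 and 15.0 FPKM in number 1 and between 3.84 and 7.01 elsewhere.

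At the low end, both number 3 libraries were the 2 lowest of 8 in 13 of the 40, against 2.25% of all genes. The number 3 medians were -0.40 in Ebi3-Tregs and -0.22 in Blimp1-Tregs, with all genes at 0.06 and 0.04. The second table, where no number 1 library takes part, showed the same among its own libraries. In 33 of the 40 the library of number 4 was above that of number 3 in both populations, against 24.2% of all genes, and in 1 it was below in both (30.4% of all genes). The median difference, number 4 minus number 3, was 0.43 on the log2 scale in Ebi3-Tregs and 0.19 in Blimp1-Tregs, where all genes had medians of -0.01 and -0.02. The count was 34 with median ratio scaling and 34 with quantile normalization. Summed B cell markers were at 72.6 FPKM in Ebi3-Treg 3, 63.3 in Ebi3-Treg 4, 38.5 in Blimp1-Treg 3 and 36.2 in Blimp1-Treg 4. Most of these sums came from Cd22 and Cd79b, which went different ways. Cd22 was at 44.5, 28.8, 15.0 and 11.9 FPKM in the same libraries, and Cd79b at 23.1, 30.9, 18.6 and 18.8. Without Cd79b the sums were 49.5, 32.4, 19.9 and 17.3 FPKM. Number 4 was above number 3 for 1 of the 8 markers in Ebi3-Tregs, 4 in Blimp1-Tregs and 1 in both. Summed plasmacytoid markers were at 18.4, 23.6, 20.4 and 26.9 FPKM in the same libraries, but without Ccr9 at 11.1, 6.80, 7.53 and 7.98, and 1 of the 6 markers was above in number 4 in both populations. Summed myeloid markers were at 13.1, 26.8, 9.36 and 19.7 FPKM, and without Lyz2 at 5.08, 6.45, 5.62 and 11.3, with 3 of the 8 above in number 4 in both populations. The part of B cells, plasmacytoid cells and myeloid cells in the difference between numbers 3 and 4 was not tested.

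In the first table number 1 was above number 2 in both populations for 29 of the 40, against 53.6% of all genes, and number 2 was above for 8 (32.1%). The median difference, number 2 minus number 1, was -0.82 in Ebi3-Tregs and -0.72 in Blimp1-Tregs, and -0.24 and -0.20 over all genes. Length moved with this difference when it was averaged over the populations. Across the 40 genes Spearman's rho between exon length and the averaged number 2 minus number 1 was -0.51, against -0.34 over all genes. Genes share their libraries. Isg15, with 756 bases of exon, had an averaged difference of 0.19 on the log2 scale and Bst2, with 903 bases, one of 0.35. Oas3, with 7069 bases, had one of -2.31 and Parp14, with 9306 bases, one of -1.57. Levels of number 2 therefore cannot be read gene against gene apart from length. By table, all 4 libraries of the first lay above all 4 of the second in 6 of the 40 (11.6% of all genes). These were Isg15, Isg20, Ifi35, Rtp4, Bst2 and Xaf1.

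**Figure D4:**
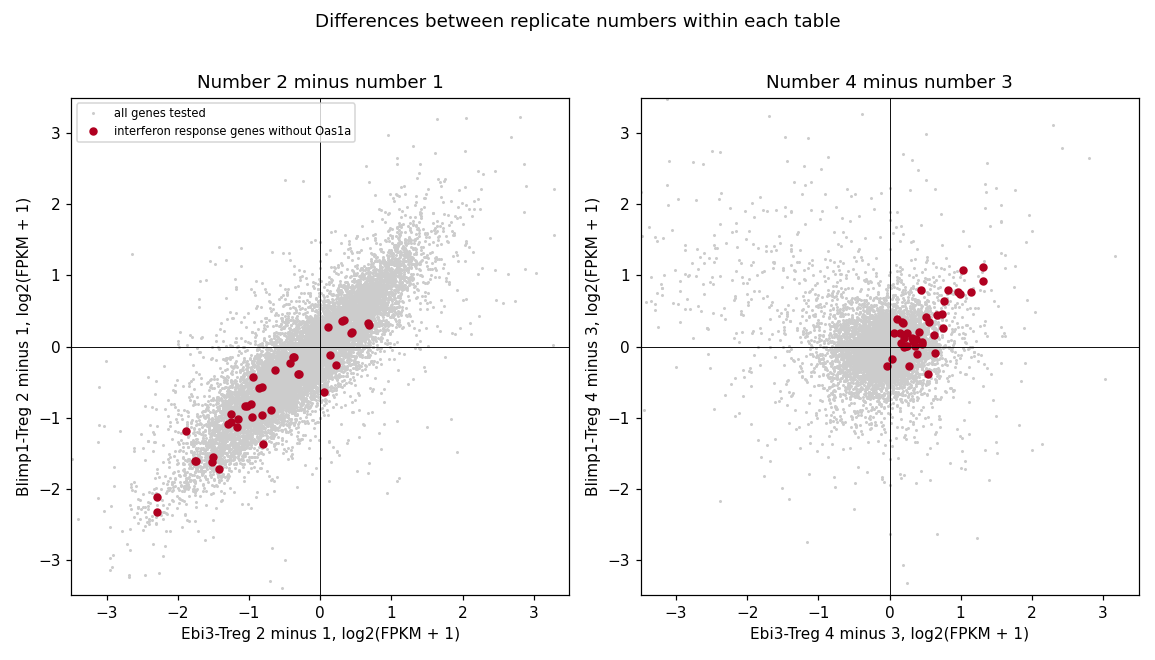
Difference in log2(FPKM + 1) between replicate numbers, Ebi3-Treg on the horizontal and Blimp1-Treg on the vertical axis, for number 2 minus 1 (left) and 4 minus 3 (right), with all genes tested in grey (22 and 33 of them outside the axes) and 39 of the 40 genes in red, without Oas1a. The red points run along the diagonal in the left panel, and most lie below it in the right panel. Over the 40 genes the median of number 4 minus 3 was 0.43 in Ebi3-Tregs and 0.19 in Blimp1-Tregs. In 33 of the 40 genes, Oas1a included, number 4 was above number 3 in both populations.

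Gene by gene, the differences between numbers in Ebi3-Tregs went with those in Blimp1-Tregs. The correlation, across genes, between the Ebi3-Treg and Blimp1-Treg differences of number 2 and number 1 was 0.93 without Oas1a (n = 39), and that of number 4 and number 3 was 0.76. Over all genes tested the same correlations were 0.85 and -0.08. Genes are not independent replicates, and the points share their libraries, so these values carry no test.

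Oas1a differed from the other 39. It encodes an enzyme that, on binding double-stranded RNA, makes the oligoadenylates that activate RNase L, and its promoter stretch with overlapping ISRE cores stands above. It was at 0, 18.8, 0 and 24.2 FPKM in Ebi3-Treg 1 to 4 and at 0, 14.8, 0.0276 and 20.9 in Blimp1-Treg 1 to 4. In reads these were 0, 714, 0 and 1008 in Ebi3-Tregs and 0, 543, 1 and 580 in Blimp1-Tregs. Both populations had the gene in numbers 2 and 4 and almost none in numbers 1 and 3, and a count of 0 allows up to 3 reads, or 0.0622 FPKM in Ebi3-Treg 1, 0.0509 in Blimp1-Treg 1 and 0.119 in Ebi3-Treg 3. Those limits and the reads cover counting error only. The gene was not called between populations (log2 fold change 0.12, SE 1.55, limma adjusted p = 0.987).

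The pattern of Oas1a was not that of the number 1 libraries, in which most of the 40 were highest. Its paralogs Oas1b and Oas1c did not share it, since Oas1b was between 2.73 and 7.74 FPKM and Oas1c between 6.44 and 10.9 in all 8 libraries. Oas1g, a close paralog, was likewise above 0 in numbers 2 and 4 alone, at a very low level, with 0 in all 4 libraries of numbers 1 and 3 and 0.0702, 0.145, 0.0321 and 0.0964 FPKM in Ebi3-Treg 2, Blimp1-Treg 2, Ebi3-Treg 4 and Blimp1-Treg 4. Reads may be shared between such copies. Oas1h was listed at 0 in all libraries. By a rule chosen after these values were seen (every library of numbers 2 and 4 at least 5-fold above every library of numbers 1 and 3, and at least 2 FPKM), 3 of the 47069 genes had this pattern in that direction. They were Oas1a, Tex35 and BC018473. Tex35 was at 0.706, 15.7, 0.452 and 6.16 FPKM in Ebi3-Tregs and 0.193, 4.51, 0.188 and 9.26 in Blimp1-Tregs, and BC018473 at 0.833, 9.07, 0.209 and 14.0 in Ebi3-Tregs and 0.0148, 4.63, 0 and 9.87 in Blimp1-Tregs. No library of numbers 1 and 3 reached 1 FPKM in any of these genes.

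Genes that stand around the 40 in the pathway were read from lists. Of 11 interferon ligands, the 10 of type I and type III were below 1 FPKM in every library, with 0.457 FPKM as the highest value, in Ifna5, so they were not tested. Ifng, the type II interferon, was at 16.1, 106, 15.8 and 21.6 FPKM in Ebi3-Tregs and 25.5, 52.5, 26.6 and 37.7 in Blimp1-Tregs. Its highest library in each population was number 2, and the log2 fold change was -0.28 (limma adjusted p = 0.89).

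Of 10 receptor chains, kinases and STATs, 2 rose in Ebi3-Tregs (3.37% of all genes), 0 fell (2.93%) and 8 were not called. Ifngr2, the signalling chain of the interferon-gamma receptor, had a log2 fold change of 1.75 (SE 0.24, limma adjusted p = 0.00542). Ifnar2, the chain that Usp18 binds, had one of 0.72 (SE 0.12, limma adjusted p = 0.0130). Ifngr1, the ligand-binding chain for interferon-gamma, was at -0.54 and not called (limma adjusted p = 0.263, and 0.0231 with the replicate block). The list's median was -0.02, near the 0.07 of all genes.

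Of 7 feedback inhibitors of interferon signalling, 2 rose in Ebi3-Tregs (3.37% of all genes) and 0 fell (2.93%), with a list median of 0.49. Socs1, which blocks JAK kinases, was at 197 ± 36.5 FPKM in Ebi3-Tregs and 74.6 ± 18.2 in Blimp1-Tregs (SD, n = 4 each), a log2 fold change of 1.40 (SE 0.22, limma adjusted p = 0.00893). Ptpn6, the phosphatase SHP-1, had a log2 fold change of 0.79 (SE 0.16, limma adjusted p = 0.0249). Usp18 is the third of that list by p and was not called. Of 12 genes of nucleic acid sensing upstream of interferon, 10 were tested and none was called by limma (6.29% of all genes). With the replicate block 3 were called higher, against 13.5% of all genes. Those 3 were Tmem173, the adaptor STING, at a log2 fold change of 0.44 (adjusted p = 0.0579, and 0.00685 with the block), Ikbke at 0.81 (0.228, and 0.00299) and Irf3 at 0.32 (0.25, and 0.0394).

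A further list of 37 interferon-stimulated genes outside the 40 gave a similar count. Of 34 tested, 1 rose (3.37% of all genes), 0 fell (2.93%) and 33 were not called, with a median of 0.04. The replicate block called 6 higher (13.5% of all genes) and 0 lower (8.94%). The gene that rose was Ifitm2, a membrane protein that hinders virus entry, at 24.5 ± 10.6 FPKM in Ebi3-Tregs and 8.11 ± 1.95 in Blimp1-Tregs (SD, n = 4 each), a log2 fold change of 1.42 (SE 0.30, limma adjusted p = 0.0298). Tor3a, at 0.48 (limma adjusted p = 0.168), and Phf11b, at -0.54 (0.296), came next by p and were not called. In a list of 18 GTPases and antigen processing genes that answer to interferon-gamma, 17 were tested, with a median of -0.27. Of these, 1 fell in Ebi3-Tregs (2.93% of all genes) and 0 rose (3.37%). The replicate block called 6 lower (8.94% of all genes) and 1 higher (13.5%). Iigp1, an IRG GTPase like Igtp, was at 27.4 ± 3.30 FPKM in Ebi3-Tregs and 53.3 ± 12.5 in Blimp1-Tregs (SD, n = 4 each), a log2 fold change of -0.91 (SE 0.17, limma adjusted p = 0.0185). Gbp8, at -0.59 (limma adjusted p = 0.0727, and 0.0128 with the block), leaned the same way, and Irf8, a transcription factor, leaned the other way at 0.75 (0.092, and 0.00614). Of the GTPases named here and among the 40, Igtp and Iigp1 passed the test, both lower in Ebi3-Tregs, and Gbp7, Gbp3 and Gbp8 had negative fold changes that did not pass, while Gbp2 and Irgm1 were near level.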

How the data were processed

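The authors deposited FPKM per gene for 8 libraries. The submitters' processing notes name TopHat2 2.0.12, Bowtie2 2.2.3, HTSeq 0.6.1 and mm9. The gene annotation, the counting mode and the order of the steps were not given in the sources used here. Per the labels' protocols the kit was a low-input one that amplifies cDNA. Reads carry no molecular identifiers, so read limits cover counting error only, and close paralogs and overlapping genes are uncertain. Symbols and exon lengths came from GENCODE on GRCm38, and no mm9 coordinates are given.

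Genes that reached 1 FPKM in 4 or more libraries (12273) were tested. Log2(FPKM + 1) was modelled by population and table in limma 3.58.1 (R 4.3.3), with a variance trend and Benjamini-Hochberg adjustment. Other fits took each table alone, an interaction of population and table, or the replicate number as a block. The fit was tried on simulated data whose noise was independent between libraries. In the real data libraries of the same number deviated together, so that trial cannot speak for this shared deviation. Fold changes on this scale understate low genes. Depth was recovered from low values as multiples of 1 read, and 34.9% to 45.5% of values above 0 were whole, within 0.01, with the reference length.

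Deviations from the population mean correlated between libraries of the same number, with r = 0.62, 0.89, 0.53 and 0.54 for numbers 1 to 4. Because each r was over 0.1, the fits with the replicate block took the numbers as pairs. The main fit had population and table as terms and did not use this pairing. Relative to the population means within a table, r was 0.85 in the first table and -0.08 in the second. Alternatives changed the filter, pseudocount, scaling, model terms and libraries.

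The members, lists, tests and settings were chosen with earlier results of these data known. Values in every library are given for called genes, for the 3 genes of each role with the highest mean and for Stat5a, and pathway lists by their 3 smallest unadjusted p. Gbp7, Ifit3, Oas1a, Oas2, Mx1, Oasl2, Cd79a, Cd79b, Cd22, Ccr9, Lyz2, Oas1g, Xist, Tex35 and BC018473 were given in detail after their values were seen.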

Additional observations from a re-analysis of the deposited data

Results flagged for a closer look

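Dixon's criterion for a library far from the other 3 of its population was met in 4 of 80 tests, close to the 1 in 20 that chance gives. Ifit2 was low in Ebi3-Treg 2, at 8.25 FPKM, and in Blimp1-Treg 2, at 10.1, against 21.5 to 25.2 in the other 6 libraries. Parp14 was low in Blimp1-Treg 2, at 13.4 FPKM, and it was at 14.5 in Ebi3-Treg 2. Trim30a was high in Blimp1-Treg 1, at 136 FPKM. Of these values, 3 are in number 2 libraries, in which long genes read low on average over the populations.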

How the results depend on the processing

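Of 837 values of the 40 genes under 21 other settings, 807 stayed on the same side of the threshold, 13 lost the call and 17 gained one. None of the called values reversed. The sign changed in 63 of the 807, all in genes not called and within 1 SE of 0 in the main fit. Genes called among the 40 numbered 1 (0 higher, 1 lower). They numbered 0 without the filter, without the table term and without the variance trend, 2 (both lower) with quantile normalization, and 10 (4 higher, 6 lower) with the replicate block. With median ratio scaling the call was Gbp7 in place of Igtp. Leaving out libraries gave 0 to 4 called, 0 to 1 higher and 0 to 3 lower. Without number 1 these were Usp18, Gbp7 and Igtp, without number 2 also Irf1, and without number 3 or number 4 there were none. Of the libraries left out one at a time, only without Ebi3-Treg 1 was Igtp still called, and without Blimp1-Treg 1 Usp18 was called alone. In the first table the 0 called became 11 with the replicate block (23.3% of all genes were called there) and stayed 0 when a library was left out. In the second table the 2 called became 0 without the filter and 0 when any library was left out, with limma's spread then resting on few libraries. Calls over all genes numbered 772, and 420 without the filter, 441 without the table term, 2752 with the replicate block and 92 to 1970 with libraries left out. They were 94 and 92 without number 3 or 4. The median log2 fold change of the 40 ran from -0.16 (without Ebi3-Treg 1) to 0.072 with libraries left out. The causes were not tested. Low-count limits touch Oas1a and Oas2 alone among the 40.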
